A study of Homo sapiens with 59 samples.

Results

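Cultures of HepG2, an established cell line from a human liver tumour, were exposed for 24 h to a hot water extract of Coptidis Rhizoma at 8.4 or at 42 µg/mL, and the transcripts of the 2 doses were compared. The comparison took the 3 libraries of the middle dose and the 3 of the low dose, 6 of the 59 libraries in 20 groups that make up the series, and used all genes. The top dose of this extract was 210 µg/mL and successive doses lay 5-fold apart, so the step from 8.4 to 42 µg/mL is the lower of the dose steps. Cultures with vehicle (DMSO) and no extract served as the reference. The sample labels give a DMSO content for vehicle only. Vehicle and Coptidis Rhizoma samples also carry different first numbers in their titles, so levels in vehicle may differ for reasons besides the extract. Cells of every group were grown in the same serum-containing medium, none carried an engineered allele, and the groups compared differed by extract dose only, as far as the labels say. The other groups of the series were 5 other water extracts at 3 doses each, vehicle, and wortmannin, an inhibitor of phosphatidylinositol 3-kinase. HepG2 is 1 tumour line grown without the other cells of a liver, and nothing in the labels says that the libraries of a group came from separate cultures. The p-values below therefore rest on the spread between libraries of a group, which may be technical. For edgeR, the program of the main fit, this spread was estimated over all 59 libraries.

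Coptidis Rhizoma is the dried rhizome of Coptis species, a bitter drug rich in isoquinoline alkaloids, of which berberine is the best known. Berberine accumulates in mitochondria, inhibits respiratory complex I and activates AMP-activated protein kinase, and it is known for lowering blood lipids and glucose. Several isoquinoline alkaloids are also ligands of the aryl hydrocarbon receptor. The alkaloid content of the extract used here is not given in the sources used here, and no measurement below bears on single compounds.

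Total counts of the 6 libraries lay between 24395925 and 29215945 and 21221 to 21583 genes had at least 1 count. Levels are given in CPM, counts scaled to library sizes that were adjusted by the trimmed mean of M values (TMM), and can be compared between libraries for 1 gene but not between genes, since they are not divided by transcript length. Means of CPM are ± SD over 3 libraries, and log2 changes are 42 minus 8.4 µg/mL ± SE of the fit. The 12 hepatocyte markers were expressed in all 6 libraries, with summed levels of 39420 to 40460 CPM at 8.4 µg/mL and 37430 to 38540 CPM at 42 µg/mL. Of 18 markers of endothelium, fibroblasts, blood and neurons, 6 (KDR, COL1A2, DCN, PTPRC, CD3E and HBB) had no count in any of the 6 libraries. Averaged over the 6 libraries, 13 of the 18 were under 1 CPM. The sum of the 18 was 92.33 to 101.5 CPM at the low and 106.3 to 109.1 CPM at the middle dose. The third replicate at 8.4 µg/mL stood somewhat apart from the other two, with a mean chi-square per gene, a measure of count differences beyond sampling, of 7.9 and 11.1 against 3.24 between those, while the 3 pairs at 42 µg/mL lay between 2.93 and 3.69.

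Over this step the cells changed a large part of their transcripts by a small amount. Of 16641 genes tested, 5278 passed an adjusted p of 0.05 (31.7%), with 2632 higher (15.8%) and 2646 lower (15.9%) at 42 µg/mL. Most changes were modest: 75.99% of the genes called moved by less than 0.5 on the log2 scale, and the median size among them was 0.29. Changes of more than 1 on that scale were seen in 336 genes, 224 upward and 112 downward. The median over all tested genes was -0.00835, so the scaling put the middle of the distribution near 0. Every library of one dose lay outside the range of the other dose for 7331 genes (44.1%). The same fit called 2656 genes (16%) at 8.4 µg/mL against vehicle, 7801 (46.9%) at 42 µg/mL against vehicle, and 9390 (56.4%) at 210 against 42 µg/mL. These comparisons share libraries with the step, so their counts are given as the setting of the step only. Transcript levels are relative to all counts of a culture, and in bulk samples fewer cells of a type and less RNA per cell cannot be told apart.

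**Figure D1:**
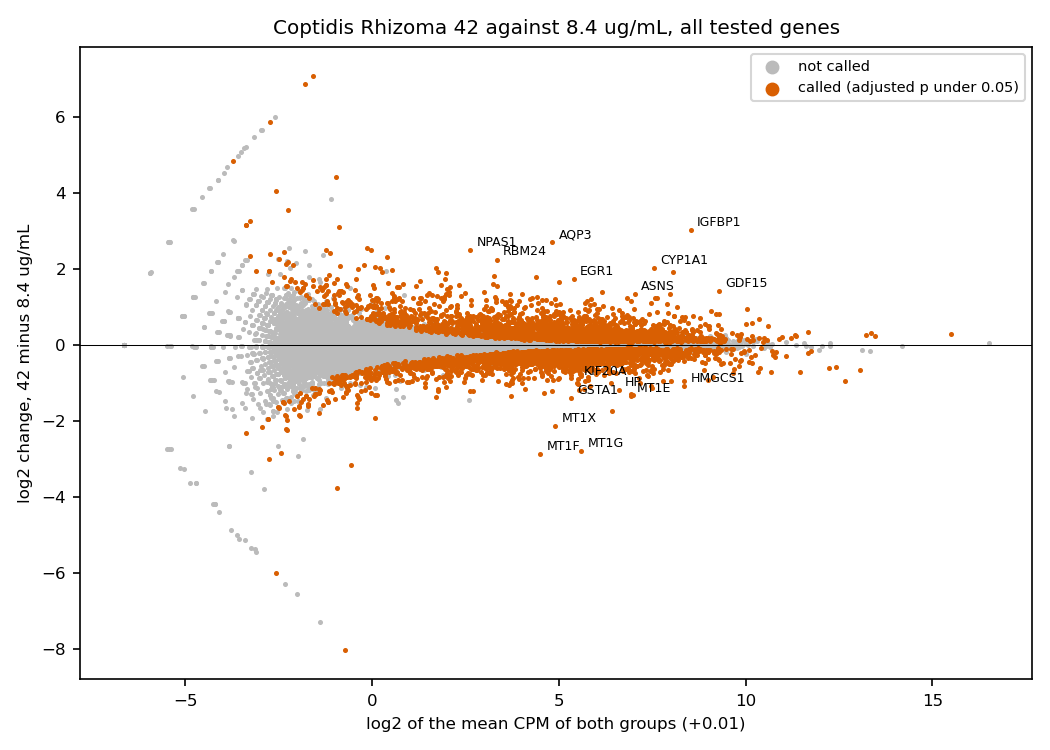
Each point is 1 of the 16641 genes tested. The horizontal axis is the log2 mean CPM of both doses (+ 0.01) and the vertical axis the log2 change from 8.4 to 42 µg/mL; orange points passed the adjusted p of 0.05 and grey points did not. The 2632 orange points above 0 and 2646 below it form about equal clouds, with IGFBP1 and AQP3 at the upper edge and MT1F and MT1G at the lower edge among well expressed genes.

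IGFBP1 showed the largest increase among genes with at least 1 CPM. It encodes a secreted binding protein of insulin-like growth factors that the liver makes when insulin signalling is low. IGFBP1 (ENSG00000146678, chromosome 7, 45888357 to 45893668, plus strand, GRCh38) had 75.6, 78.6 and 86.8 CPM in the 3 libraries at 8.4 µg/mL and 672, 638 and 666 CPM in those at 42 µg/mL. Every library at the middle dose lay far above every library at the low dose (log2 change 3.03 ± 0.09, edgeR adjusted p = 8.55e-32). The level continued the series of doses, with 39.8 ± 4.38 CPM in vehicle and 3931 ± 201 CPM at 210 µg/mL. AQP3, a channel for water and glycerol (ENSG00000165272, chromosome 9, 33441154 to 33447633, minus strand), came next, with 7.69, 7.43 and 7.59 CPM at 8.4 µg/mL and 49.5, 49.3 and 48.9 CPM at 42 µg/mL. The 3 values within each dose nearly coincided and the doses did not overlap (log2 change 2.7 ± 0.08, edgeR adjusted p = 8.55e-32), and the mean was 701 CPM at 210 µg/mL against 3.98 CPM in vehicle.

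The other members of the top 12 by size were mostly low in HepG2 cells. NPAS1, a transcription factor of the basic helix-loop-helix and PAS family better known from neurons, went from 1.85 ± 0.366 to 10.5 ± 0.737 CPM (log2 change 2.50 ± 0.12, edgeR adjusted p = 2.39e-22). RBM24, an RNA-binding regulator of splicing in muscle, went from 3.51 ± 0.226 to 16.8 ± 1.17 CPM (log2 2.25 ± 0.10). Both were above the range of the low dose in all 3 libraries. IGFBP3, another IGF binding protein, rose from 0.448 ± 0.0944 to 1.83 ± 0.291 CPM and reached 18.9 CPM at 210 µg/mL. The complement receptor gene C5AR1 rose by 2.56 on the log2 scale, the apoptosis inhibitor BIRC7 by 2.51, the fucosyltransferase FUT1 by 2.33, the immunoglobulin-like receptor OSCAR by 2.11, SBK3 by 2.04 and the guanine nucleotide exchange factor ARHGEF4 by 2.00. Each of these 6 was below 0.5 CPM at the low dose and above 1 CPM at the middle dose. FUT1 did not go on rising at the top dose, where its mean was 2.07 CPM.

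Of 13 tested genes for growth and stress hormones of the liver, 7 rose and 2 fell, with a median log2 change of 0.549. Among all tested genes 15.8% rose and 15.9% fell. GDF15, a stress hormone that acts on the brainstem to reduce appetite (ENSG00000130513, chromosome 19, 18374731 to 18389176, plus strand), had 342, 309 and 369.9 CPM in the 3 libraries at 8.4 µg/mL and 967, 867 and 884 CPM in those at 42 µg/mL. All libraries at 42 µg/mL were above 860 CPM and none at 8.4 µg/mL reached 380 CPM (log2 change 1.41 ± 0.05, edgeR adjusted p = 1.46e-26), with 141 ± 9.31 CPM in vehicle and 2428 ± 78 CPM at 210 µg/mL. Other members named from the list moved less: the activin-type subunit INHBE rose by 0.82 ± 0.06, the activin-binding protein FST by 0.75 ± 0.05, and ANGPTL8, a regulator of lipoprotein lipase, by 0.69 ± 0.08. IGF2, a fetal growth factor that hepatoma cells make, fell by 0.45 ± 0.07 on the log2 scale, and 1 of the 2 falling members was lost without the third library of either dose.

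The strongest decreases were in metallothioneins, small cysteine-rich proteins that bind zinc and copper. Zinc loading of the transcription factor MTF1 lets it bind metal response elements in their promoters, and the zinc exporter SLC30A1 is switched on in the same way. MT1F (ENSG00000198417, chromosome 16, 56657694 to 56660698, plus strand) had 40.3, 37.4 and 41.4 CPM in the 3 libraries at 8.4 µg/mL and 5.42, 6.13 and 4.84 CPM in those at 42 µg/mL. The low-dose libraries were all above 37 CPM and the middle-dose libraries all below 6.2 CPM (log2 change -2.86 ± 0.09, edgeR adjusted p = 1.2e-29), with 55.1 ± 2.55 CPM in vehicle and 3.89 ± 0.142 CPM at 210 µg/mL. MT1G had 89.3, 64.8 and 101 CPM at 8.4 µg/mL and 14.8, 10.8 and 11.3 CPM at 42 µg/mL (log2 change -2.79 ± 0.16, edgeR adjusted p = 2.78e-20), and MT1X had 48.2, 40.6 and 57.1 CPM at 8.4 µg/mL and 12, 10.1 and 11.3 CPM at 42 µg/mL (log2 change -2.13 ± 0.14, edgeR adjusted p = 3.49e-18). In both genes the second replicate was lowest and the third highest at 8.4 µg/mL, yet every low-dose library was above every middle-dose one. MT1E fell from 175 ± 22.5 to 68.6 ± 2.01 CPM (log2 -1.35 ± 0.10). MT1M was near the limit of detection, with 71 counts over the 3 low-dose libraries and 5 over the 3 middle-dose libraries (edgeR adjusted p = 2.01e-08).

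MT2A, another metallothionein, was not called. Its values were 391, 319 and 443 CPM at 8.4 µg/mL and 374, 353 and 336 CPM at 42 µg/mL, and the ranges overlapped (log2 change -0.12 ± 0.13, edgeR adjusted p = 0.528). At 210 µg/mL MT2A stood at 1429 CPM, above the 386 CPM of vehicle. MT1A was not called either (log2 -0.32, edgeR adjusted p = 0.197). The exporter SLC30A1 fell from 124 ± 2.46 to 98.9 ± 0.359 CPM (edgeR adjusted p = 3.89e-09), whereas the importers SLC39A10 and SLC39A4 rose: SLC39A10 had 16.5, 15.2 and 15.1 CPM at 8.4 µg/mL and 33.9, 36.2 and 35.6 CPM at 42 µg/mL (log2 change 1.17 ± 0.06, edgeR adjusted p = 3.76e-21) and SLC39A4 went from 66.6 ± 6.97 to 100.0 ± 3.12 CPM. The importer SLC39A14 and the exporter SLC30A10 fell by 0.24 and 0.32 on the log2 scale. In all, 8 of 12 tested members of the metallothionein and zinc list fell, 2 rose and 2 were not called. That was 83.3% called against 31.7% of all tested genes. MT1 genes are close copies of each other, and the deposited expected counts divide shared reads among them by estimation, so the split between single MT1 genes is uncertain.

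The promoters of a falling and of a non-called metallothionein are shown with that of SREBF2, the gene of the sterol-sensing factor SREBP2. Each belongs to a group of genes whose main factor has a known sequence motif. SREBF2 was picked after the search, as the only 1 of 18 cholesterol genes with a window that held a match. They are RefSeq windows of the 250 bases before the start on GRCh38.p14, all on the plus strand: chr16:56682220-56682469 for MT1X, chr16:56608334-56608583 for MT2A and chr22:41832855-41833104 for SREBF2. Capitals mark matches on either strand, to the core of the metal response element (TGCACNC or TGCGCNC) in MT1X and MT2A, and to the sterol regulatory element (ATCAC, any base, CCAC) in SREBF2.
MT1X: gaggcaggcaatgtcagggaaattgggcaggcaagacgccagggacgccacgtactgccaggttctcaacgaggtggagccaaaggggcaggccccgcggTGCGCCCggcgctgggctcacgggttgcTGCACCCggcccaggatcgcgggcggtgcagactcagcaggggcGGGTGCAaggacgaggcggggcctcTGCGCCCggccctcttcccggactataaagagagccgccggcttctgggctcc
MT2A: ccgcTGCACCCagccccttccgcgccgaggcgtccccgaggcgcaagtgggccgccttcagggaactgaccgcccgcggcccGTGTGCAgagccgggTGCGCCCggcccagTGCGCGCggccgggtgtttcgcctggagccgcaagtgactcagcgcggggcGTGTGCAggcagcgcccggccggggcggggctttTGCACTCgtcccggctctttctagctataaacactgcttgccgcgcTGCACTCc
SREBF2: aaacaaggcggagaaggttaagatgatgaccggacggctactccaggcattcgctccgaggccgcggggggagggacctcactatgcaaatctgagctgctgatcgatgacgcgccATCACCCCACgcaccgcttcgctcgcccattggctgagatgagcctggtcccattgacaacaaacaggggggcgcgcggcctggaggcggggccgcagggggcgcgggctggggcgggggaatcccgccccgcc
Of 9 metallothionein and zinc genes looked up, 4 had a window in the table, and of 25 cholesterol genes 18. MT1X had 4 matches, at 150, 122, 78 and 53 bases before the start, MT2A had 7 and MT1H had 8. SLC30A1 had 1 match, at 49 bases before its start, so all 4 windows held a match. MT1E, MT1F, MT1G and MT1M, which fell, had no window, so matches were not set against the changes. The metal element core occurred in 24.7% of the 27305 promoter windows of the table. SREBF2 had 1 match, at 134 bases before the start, and the sterol element occurred in 0.125% of windows. The other 17 cholesterol genes with a window had none in it. These are matches of letters and no binding was measured.

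Cholesterol synthesis genes fell nearly throughout the pathway. The pathway runs from acetyl-CoA through HMG-CoA and mevalonate to squalene and then to sterols, and SREBP2 drives nearly all of its genes. Of 25 tested members of the cholesterol synthesis and uptake list 22 fell, none rose, and the median log2 change was -0.876. HMGCS1 (ENSG00000112972, chromosome 5, 43289395 to 43313512, minus strand), which makes HMG-CoA, had 448, 449.9 and 435 CPM in the 3 libraries at 8.4 µg/mL and 215, 203 and 211 CPM in those at 42 µg/mL. Every middle-dose value was below every low-dose value (log2 change -1.08 ± 0.05, edgeR adjusted p = 2.73e-23), with 484 ± 15.4 CPM in vehicle and 84.3 ± 5.2 CPM at 210 µg/mL.

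Along the pathway, ACAT2 at the entry fell from 248 ± 5.46 to 114 ± 3.53 CPM. The mevalonate enzymes MVK and MVD went from 64.7 ± 3.51 to 28.6 ± 1.49 CPM and from 174 ± 8.4 to 70.8 ± 3.2 CPM. Among the squalene and sterol enzymes, SQLE, which oxidises squalene, had 335, 331 and 338 CPM at 8.4 µg/mL and 180.0, 175 and 171 CPM at 42 µg/mL (log2 change -0.94 ± 0.03, edgeR adjusted p = 6.69e-28) with no overlap. LSS fell by 1.07 ± 0.04 and TM7SF2 by 1.00 ± 0.07 on the log2 scale, and SC5D, late in the pathway, by 0.64 ± 0.04. The gene of SREBP2 itself, SREBF2, had 174, 174 and 186 CPM at 8.4 µg/mL and 134, 131 and 137 CPM at 42 µg/mL (log2 change -0.41 ± 0.04, edgeR adjusted p = 3.18e-12).

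Among members not called, PMVK, the kinase between MVK and MVD, changed by -0.10 ± 0.13, and INSIG1, a sterol-regulated brake on SREBP processing, was at 0.223 ± 0.155 CPM at 8.4 µg/mL and 0.107 ± 0.0847 CPM at 42 µg/mL.

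Fatty acid and triglyceride synthesis, which SREBP1 governs, fell in 13 of 18 tested members and rose in none (median -0.346). The desaturases FADS2, FADS1 and SCD went from 182 ± 4.7 to 72.9 ± 1.5 CPM, from 207 ± 3.02 to 119 ± 1.15 CPM and from 2037 ± 19.1 to 1245 ± 19.4 CPM. FASN, the fatty acid synthase, fell from 1597 ± 46.8 to 981 ± 30.6 CPM (edgeR adjusted p = 5.34e-09), DGAT1, which makes triglyceride, from 67.9 ± 0.902 to 35.3 ± 0.511 CPM, and the lipase-like PNPLA3 by 0.87 ± 0.09 on the log2 scale. SREBF1 fell by 0.31 ± 0.06. The 9 tested genes of cholesterol efflux and LXR, the oxysterol receptor, split into 3 higher and 2 lower, with changes from -0.22 to 0.25 on the log2 scale. That was 55.6% called against 31.7% of all tested genes. The numbers higher and lower became 1 and 0 without the third low-dose library, and 1 and 1 without the second middle-dose library.

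**Figure D2:**
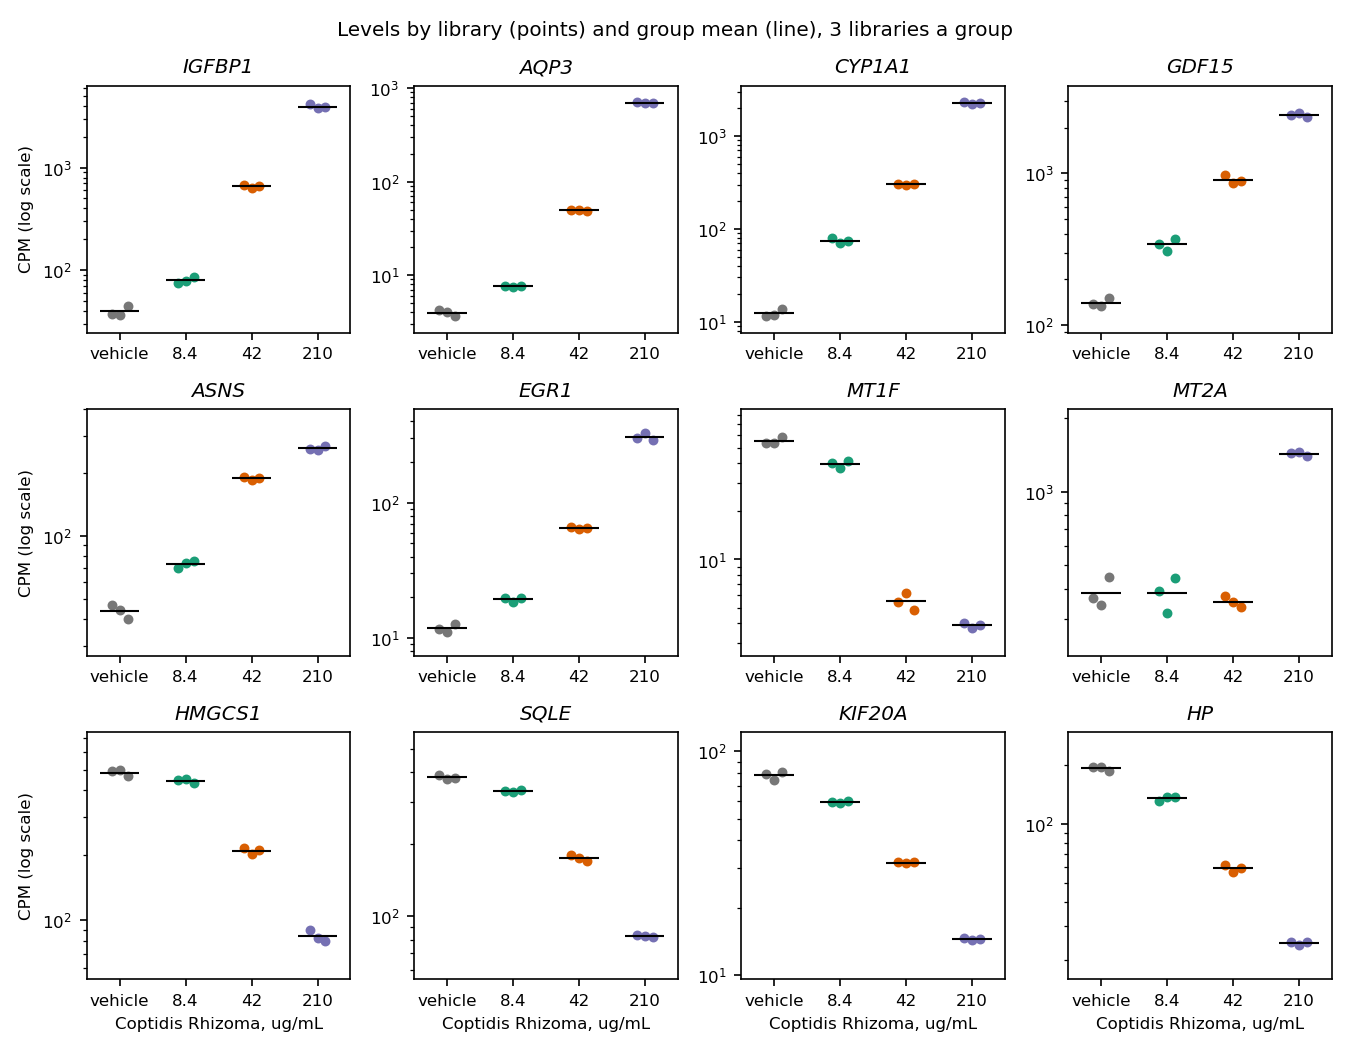
CPM on a log axis for 12 genes in vehicle and at 8.4, 42 and 210 µg/mL; each point is 1 of 3 libraries and the short line marks the group mean. IGFBP1, AQP3, CYP1A1, GDF15, ASNS and EGR1 were higher at 42 than at 8.4 µg/mL in all libraries, MT1F, HMGCS1, SQLE, KIF20A and HP lower in all libraries, and MT2A overlapped.

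The aryl hydrocarbon receptor (AHR) is a ligand-activated transcription factor whose classic targets are cytochrome P450 enzymes of family 1. CYP1A1 (ENSG00000140465, chromosome 15, 74719542 to 74725610, minus strand) had 79.3, 70.0 and 74 CPM in the 3 libraries at 8.4 µg/mL and 307, 295 and 303 CPM in those at 42 µg/mL. The middle-dose values were about 4 times the low-dose values with no overlap (log2 change 2.02 ± 0.07, edgeR adjusted p = 1.36e-27), with 12.3 ± 1.13 CPM in vehicle and 2254 ± 44 CPM at 210 µg/mL. CYP1A2, its low-expressed neighbour, had no count in the first low-dose library, 0.168 and 0.147 CPM in the other two, and 0.845, 1.05 and 1.01 CPM at 42 µg/mL (edgeR adjusted p = 9.97e-07). The repressor AHRR rose from 0.673 ± 0.124 to 1.34 ± 0.302 CPM and AHR itself from 55.5 ± 3.33 to 84.8 ± 2.7 CPM. The bilirubin-conjugating enzyme UGT1A1 went from 0.297 ± 0.112 to 0.924 ± 0.0648 CPM and ALDH3A1 rose by 0.60 ± 0.22. In all, 7 of 12 tested AHR targets rose and none fell (median 0.605). The members not called included TIPARP, another AHR target, at 0.04 ± 0.05, and CYP1B1 at 0.26 ± 0.92.

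NRF2 is the factor that turns on antioxidant and conjugating enzymes when electrophiles modify its inhibitor KEAP1. Of its 25 tested targets 20 rose and 3 fell (median 0.408), where 15.8% of all tested genes rose and 15.9% fell. AKR1B10, an aldo-keto reductase, rose from 153 ± 6 to 326 ± 9.31 CPM, the autophagy receptor SQSTM1 from 373 ± 8.18 to 699 ± 4.76 CPM, the sulfiredoxin SRXN1 from 140.5 ± 5.27 to 256 ± 4.36 CPM and the conjugate exporter ABCC2 from 457 ± 20.9 to 801 ± 33.6 CPM. NQO1, a quinone reductase shared with the AHR list, had 823, 807 and 854 CPM at 8.4 µg/mL and 1235, 1195 and 1246 CPM at 42 µg/mL and did not overlap (log2 change 0.56 ± 0.05, edgeR adjusted p = 1.76e-14). GCLC, which limits glutathione synthesis, and TXNRD1, a thioredoxin reductase, rose by 0.82 and 0.77 on the log2 scale. HMOX1, the haem oxygenase that is often used as the marker of this response, moved the other way, from 47.3 ± 1.33 to 39.1 ± 2.06 CPM (log2 change -0.28 ± 0.05, edgeR adjusted p = 2.33e-05), while its mean at 210 µg/mL was 95.2 CPM. EPHX1, an epoxide hydrolase, fell by 0.17.

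Other drug-metabolism genes did not move as one. Of 13 tested targets of PXR and CAR, the xenobiotic receptors of the liver, 6 rose and 4 fell. That was 76.9% called against 31.7% of all tested genes. The drug exporter ABCB1 went from 79.8 ± 1.78 to 127 ± 1.57 CPM and NR1I2, the gene of PXR, from 17.1 ± 0.628 to 24.4 ± 0.603 CPM. CYP3A4, the best known PXR target, was at 0.327 ± 0.236 CPM at 8.4 µg/mL and 0.28 ± 0.148 CPM at 42 µg/mL, too low to resolve a change (edgeR adjusted p = 0.765). The glutathione transferase GSTA1 fell from 57.9 ± 2.17 to 22.1 ± 1.01 CPM (log2 change -1.39 ± 0.06, edgeR adjusted p = 2.19e-24), and its close copy GSTA2, which can share reads with it, from 8.54 ± 0.665 to 3.67 ± 0.806 CPM. Vehicle had 82.2 CPM of GSTA1 and the top dose 11.2 CPM.

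The amino acid response, in which the factor ATF4 turns on amino acid synthesis, transport and tRNA charging when translation initiation is restrained, rose in 29 of 32 tested members and fell in none (median 0.605). ASNS, asparagine synthetase (ENSG00000070669, chromosome 7, 97852118 to 97872542, minus strand), had 70.5, 74.5 and 75.7 CPM in the 3 libraries at 8.4 µg/mL and 189.7, 185 and 188 CPM in those at 42 µg/mL. No low-dose value reached 76 CPM and no middle-dose value was below 184 CPM (log2 change 1.35 ± 0.05, edgeR adjusted p = 5.92e-28), with 43.9 ± 3.44 CPM in vehicle and 261 ± 5.4 CPM at 210 µg/mL. SLC7A11, the cystine importer shared with the NRF2 list, rose from 113 ± 7.08 to 267 ± 9.64 CPM, the lipoprotein receptor VLDLR from 4.29 ± 0.282 to 15.1 ± 0.583 CPM and the cysteine-making enzyme CTH from 14.3 ± 1.26 to 32.6 ± 2.42 CPM. The mitochondrial folate enzymes ALDH1L2 and MTHFD2 rose by 1.27 and 0.76 on the log2 scale, and 6 tRNA synthetase genes by 0.25 to 0.63. The stress effectors were called at smaller sizes: DDIT4 by 0.97, DDIT3 (CHOP) from 14.5 ± 0.095 to 24.1 ± 1.18 CPM, TRIB3 from 178 ± 9.95 to 275 ± 11.5 CPM and ATF4 itself from 405 ± 13.1 to 466 ± 2.81 CPM. CHAC1, which degrades glutathione, rose by 1.78 from a mean of 0.0787 CPM (edgeR adjusted p = 0.0381). It was not called in 5 of the 11 alternative fits that tested it, among them those without the second library of either dose. ATF5, PSPH and SLC7A5 were not called, and FGF21 was too low to test.

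Chaperones of the endoplasmic reticulum, the other arm of protein stress, were called mostly lower. Of 20 tested members 10 fell and 3 rose (median -0.112), where 15.9% of all tested genes fell and 15.8% rose. SDF2L1 fell by 0.62 ± 0.14, the calcium-binding chaperone CALR from 1330.3 ± 52.1 to 968 ± 20.7 CPM, MANF from 91.3 ± 4.87 to 67.5 ± 1.46 CPM and HSPA5 (BiP), the master chaperone, from 1319 ± 33.8 to 1110.3 ± 20.0 CPM. HERPUD1, DNAJB9 and EDEM1 rose by 0.14, 0.30 and 0.32 on the log2 scale. Of 16 tested heat shock proteins 9 fell and none rose (median -0.179). HSP90AA1 went from 2365 ± 57.1 to 1944 ± 53.4 CPM and HSPE1 fell by 0.38 ± 0.08. HSPA1A and HSPA1B, near-identical copies that can share reads, fell by 0.38 and 0.43.

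Immediate early genes, which growth factor and stress kinases switch on within minutes without new protein, were higher 24 h after the start of exposure. Of 18 tested members 15 rose and none fell (median 0.792). EGR1, a zinc finger factor (ENSG00000120738, chromosome 5, 138465490 to 138469315, plus strand), had 19.8, 18.6 and 19.7 CPM in the 3 libraries at 8.4 µg/mL and 66.3, 63.7 and 64.5 CPM in those at 42 µg/mL. Its middle-dose values were all above 63 CPM and its low-dose values all below 20 CPM (log2 change 1.75 ± 0.06, edgeR adjusted p = 4.83e-28), with 11.9 ± 0.874 CPM in vehicle and 306 ± 18.2 CPM at 210 µg/mL. IER3 rose from 112 ± 6.85 to 242 ± 7.87 CPM, JUN from 43.4 ± 3.09 to 67.9 ± 2.25 CPM and FOS from 0.975 ± 0.118 to 2.31 ± 0.567 CPM, which stood at 62.7 CPM at the top dose. FOSB rose by 1.13 but was not called without the second middle-dose or the first low-dose library. JUND, EGR2 and EGR3 were not called.

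Feedback genes of ERK, the kinase at the end of the growth factor cascade, rose in 10 of 13 tested members and fell in none (median 0.463). DUSP5 and DUSP6, phosphatases that switch ERK off, went from 5.14 ± 0.472 to 15.1 ± 1.55 CPM and from 82.1 ± 3.1 to 138 ± 1.93 CPM. SPRY4, an inhibitor upstream of ERK, went from 88.2 ± 0.595 to 172 ± 1.81 CPM. ETV4, a transcription factor of the same feedback set, was at -0.03 ± 0.03, and SPRY2 and SPRED2 were not called. IER3 stands in both lists.

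All 22 tested mitosis genes fell, each by between 0.42 and 0.90 on the log2 scale (median -0.593). KIF20A, a kinesin of cytokinesis (ENSG00000112984, chromosome 5, 138178719 to 138187715, plus strand), had 59.3, 58.7 and 60.2 CPM in the 3 libraries at 8.4 µg/mL and 31.9, 31.6 and 32.1 CPM in those at 42 µg/mL. The spread within each dose was under 2 CPM and the doses did not overlap (log2 change -0.90 ± 0.05, edgeR adjusted p = 5.27e-22), with 78.3 ± 3.31 CPM in vehicle and 14.5 ± 0.15 CPM at 210 µg/mL. Aurora kinase B (AURKB) went from 50.3 ± 2.43 to 29.2 ± 1.34 CPM, Polo-like kinase 1 (PLK1) from 214 ± 9.8 to 134 ± 4.04 CPM, and the centromere histone CENPA fell by 0.72 ± 0.10. DNA replication genes fell in 21 of 22 members (median -0.382): MCM2, a subunit of the replicative helicase, from 157 ± 4.81 to 103 ± 2.54 CPM, the DNA ligase LIG1 by 0.55 and the helicase cofactors GINS1 and GINS2 by 0.54 and 0.51 on the log2 scale. CCNE2, the cyclin of the G1 to S transition, was not called at -0.11 ± 0.14.

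Regulators of cell cycle entry did not share a direction, with 4 higher and 3 lower of 11 tested (63.6% called against 31.7% of all tested genes). The CDK inhibitor CDKN1A (p21) rose from 114 ± 7.55 to 177 ± 8.52 CPM and reached 548 CPM at 210 µg/mL, and CDKN2B rose from 5.91 ± 0.277 to 9.82 ± 0.736 CPM. CDKN2C, another inhibitor of the same family and itself a gene of cycling cells, fell from 17.9 ± 1.27 to 8.97 ± 0.592 CPM. MYC rose from 198 ± 13.2 to 231 ± 4.45 CPM and E2F1 fell by 0.33 ± 0.05. Targets of p53 were divided too, 10 higher and 9 lower of 23 (82.6% called). Those higher included PLK3, CDKN1A, SESN2 and GDF15, of which SESN2 and GDF15 are also ATF4 targets, and those lower included the repair gene DDB2 (-0.25), FDXR (-0.31) and SESN1 (-0.41).

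Transcripts of the mitochondrial genome changed unevenly. Of 13 protein-coding transcripts 5 were called, all lower: MT-ND5, MT-ND6, MT-CYB, MT-ND1 and MT-ND2, which encode subunits of complex I and cytochrome b of complex III. MT-ND5 had 9005, 9666 and 6853 CPM in the 3 libraries at 8.4 µg/mL and 4421, 4876 and 4047 CPM in those at 42 µg/mL, so that the 3 low-dose libraries spread widely, the third lowest, and still did not overlap with the middle dose (log2 change -0.94 ± 0.12, edgeR adjusted p = 6.29e-09). MT-CYB had 10034, 11373 and 9743 CPM at 8.4 µg/mL and 6535, 7264 and 6056 CPM at 42 µg/mL (log2 change -0.65 ± 0.09, edgeR adjusted p = 3.61e-08), and MT-ND6 went from 1010.1 ± 65.2 to 602 ± 51.6 CPM. Transcripts of the other members, among them MT-CO1 (-0.17, edgeR adjusted p = 0.0771), MT-ND4 (0.06) and MT-ATP6 (0.06), were not called. MT-ND4L had 671, 695 and 539.7 CPM at 8.4 µg/mL and 792, 795 and 720.4 CPM at 42 µg/mL with no overlap, the one member not called whose middle-dose libraries were all higher (log2 change 0.28 ± 0.12, edgeR adjusted p = 0.0678). Vehicle held less MT-ND5 and MT-CYB than the low dose did, with means of 3906 and 5701 CPM. MT-ND6 lies on the strand opposite to the others, and reads of overlapping transcripts on the 2 strands depend on the strand setting of the counting, which is not given in the sources used here.

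The 2 ribosomal RNAs of the mitochondrion took a different course. MT-RNR2 had 91707, 100892 and 81319.6 CPM at 8.4 µg/mL and 92957, 96884 and 95070.3 CPM at 42 µg/mL, overlapping and not called (edgeR adjusted p = 0.633), while MT-RNR1 had 42197, 45569 and 37476 CPM at 8.4 µg/mL and 49169, 51288 and 52508 CPM at 42 µg/mL (log2 change 0.29 ± 0.09, edgeR adjusted p = 0.015). Both were far above vehicle at either dose, where MT-RNR2 was 19958 CPM and MT-RNR1 4147 CPM. The library kit is made for messenger RNA, so ribosomal RNA is not its target. The 13 messenger RNAs together made 5.624% ± 0.692 of all counts at 8.4 µg/mL and 4.345% ± 0.39 at 42 µg/mL (SD, n = 3 each), with an exact permutation p of 0.1, the smallest that 3 against 3 libraries can give. Leaving the mitochondrial genes out of the library totals gave 5262 genes called in place of 5278. Without the third low-dose library, and with no filter on low counts, 8 of the 13 were called lower. One of the 13 was called higher in 5 of 13 alternatives, among them the fit without the second low-dose library.

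**Figure D3:**
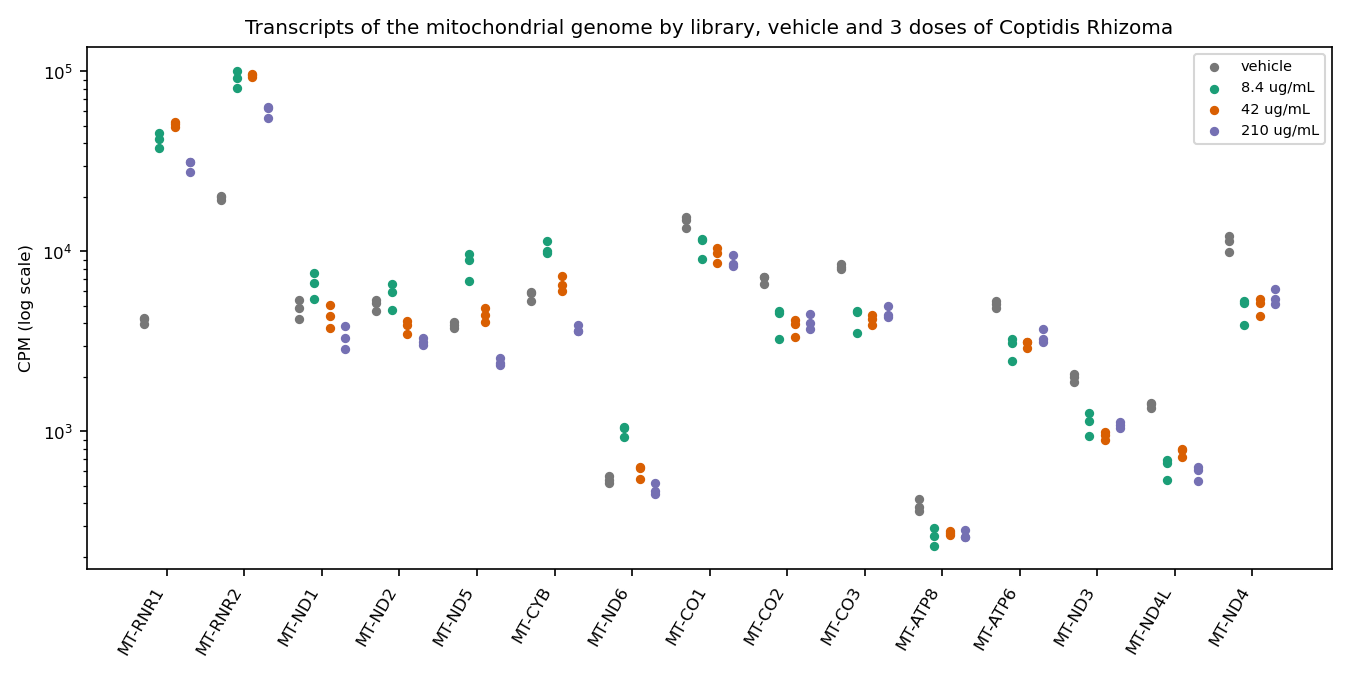
CPM on a log axis for the 15 transcripts of the mitochondrial genome, 1 point per library, in vehicle and at 8.4, 42 and 210 µg/mL. MT-ND5, MT-CYB, MT-ND1, MT-ND2 and MT-ND6 lay lower at 42 than at 8.4 µg/mL, whereas MT-RNR1 and MT-RNR2 stood above vehicle at all doses of the extract.

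Nuclear genes of the same organelle moved little. Against 31.7% of all tested genes called, 2 of 38 complex I subunits rose and 3 fell (13.2%). Of 33 subunits of complexes II to V 3 fell (9.09%), and no called subunit moved by more than 0.22 on the log2 scale. Those counts moved with the libraries used: 1 complex I subunit was called lower without the second middle-dose or the third low-dose library, and no subunit of complexes II to V without the latter. A replicate block in the 2 groups alone gave 9 and 7 lower. It also gave 5 complex I subunits higher, as 3 other alternatives did, against 1 without the first middle-dose or the second low-dose library.

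Of 21 tested genes of mitochondrial transcription and RNA stability 4 rose and 2 fell (median 0.0311), 28.6% called against 31.7% of all tested genes. Over the alternatives 0 to 2 were lower. FASTKD1 and FASTKD5, of a family of mitochondrial RNA-binding proteins, rose by 0.30 ± 0.05 and 0.22 ± 0.04 on the log2 scale, and PNPT1, a polynucleotide phosphorylase, by 0.12 ± 0.03, each called in all 14 alternatives. TFAM, which packs and transcribes mitochondrial DNA, fell by 0.13 ± 0.04 on the log2 scale, a call lost without the second middle-dose library (log2 -0.08, edgeR adjusted p = 0.105) and in 2 other alternatives. Mitochondrial ribosomal proteins had 6 higher and 13 lower of 78 (median -0.0539), the lower count near the 15.9% of all tested genes. It was 7 without the third low-dose library, 8 without the second middle-dose library and 21 with a replicate block in the 2 groups alone, and 3 in place of 6 were higher without the first low-dose library.

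Products that hepatocytes secrete into plasma fell in 11 of 24 tested members and rose in 3, with a median of -0.132. Of all tested genes 15.9% fell and 15.8% rose. HP, haptoglobin, which binds free haemoglobin (ENSG00000257017, chromosome 16, 72054592 to 72061055, plus strand), had 131, 137 and 137 CPM in the 3 libraries at 8.4 µg/mL and 61.2, 56.9 and 59.3 CPM in those at 42 µg/mL. All middle-dose values were under 62 CPM and all low-dose values over 130 CPM (log2 change -1.19 ± 0.04, edgeR adjusted p = 4.96e-27), with 192 ± 5.18 CPM in vehicle and 24.6 ± 0.422 CPM at 210 µg/mL. HPX, the haem carrier, fell from 9.07 ± 0.493 to 3.94 ± 0.0639 CPM. The 3 fibrinogen chains fell together, FGA from 663 ± 12.8 to 350.1 ± 4.97 CPM, FGG from 719 ± 2.7 to 401 ± 0.683 CPM and FGB from 189 ± 0.998 to 118 ± 3.19 CPM. APOC3, an inhibitor of triglyceride clearance, fell by 0.81 ± 0.08 and APOA1, the main protein of HDL, from 946 ± 61.3 to 730.3 ± 59.3 CPM. APOA2, AHSG and AMBP rose, by no more than 0.24 on the log2 scale.

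ALB, albumin, had 9112, 9111 and 9579.5 CPM at 8.4 µg/mL and 8635, 8153 and 8655 CPM at 42 µg/mL; all middle-dose libraries were below the low-dose ones, but the change was small and not called (log2 change -0.13 ± 0.05, edgeR adjusted p = 0.0708). It passed the threshold in 4 alternative fits, with adjusted p from 0.00557 to 0.038. AFP, the fetal counterpart of albumin, fell from 3498 ± 104 to 3015 ± 19.6 CPM (edgeR adjusted p = 2.82e-06). The kininogen gene KNG1 fell from 4.76 ± 0.681 to 1.83 ± 0.217 CPM.

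Transcription factors of the hepatocyte were split, 6 higher and 6 lower of 16, 75% called against 31.7% of all tested genes. NR1H4, the bile acid receptor FXR, fell from 61.4 ± 1.74 to 30.4 ± 1.44 CPM, CEBPA from 130.4 ± 7.56 to 81.8 ± 2.57 CPM and ONECUT1 (HNF6) by 0.94 ± 0.18. HNF4A, the central factor of the lineage, rose from 355 ± 7.31 to 400.4 ± 6.26 CPM, and CEBPB, also an ATF4 target, from 39.2 ± 2.83 to 59.7 ± 3.07 CPM. NR0B2 (SHP), a target of FXR that represses bile acid synthesis, rose from 66.4 ± 6.18 to 88.6 ± 2.13 CPM while FXR fell. CYP7A1, the rate-limiting enzyme of bile acid synthesis, was at 0.45 ± 0.037 CPM at 8.4 µg/mL and 0.382 ± 0.0713 CPM at 42 µg/mL and was not called. CYP8B1 fell by 0.58 ± 0.18, a call lost without the third low-dose library (edgeR adjusted p = 0.131).

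Genes of glucose output and insulin action included IGFBP1 and were higher in 8 and lower in 3 of 18 tested members (median 0.15). Of all tested genes 15.8% were higher and 15.9% lower. G6PC1, glucose-6-phosphatase, rose from 2.02 ± 0.389 to 3.63 ± 0.353 CPM, though it was 1.46 CPM at 210 µg/mL. TXNIP, a glucose-sensing brake on glucose uptake, rose from 16.3 ± 1.13 to 29.4 ± 0.514 CPM, back to near the 30.6 CPM of vehicle. INSR, the insulin receptor, rose from 71.8 ± 2.77 to 82.6 ± 0.187 CPM (edgeR adjusted p = 0.000507). PCK1, the other key enzyme of gluconeogenesis, was at -0.24 ± 0.15 and was not called.

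The glycolysis and hypoxia list had 10 members higher and 4 lower of 28 (median 0.109), where 15.8% of all tested genes rose and 15.9% fell. PFKP, a phosphofructokinase, went from 6.2 ± 0.45 to 13.6 ± 0.475 CPM, NDRG1, a hypoxia-responsive gene, from 29.1 ± 1.37 to 44.1 ± 1.63 CPM and the glucose transporter SLC2A1 from 711 ± 28.3 to 881 ± 18.7 CPM. ALDOC fell by 0.54 ± 0.09. LDHA, PGK1 and GAPDH, the abundant enzymes of the pathway, changed by 0.02, 0.04 and 0.07 and were not called. Fatty acid oxidation and PPAR alpha targets had 6 higher and 3 lower of 19. In both lists the number lower was near the 15.9% of all tested genes. The lipid droplet coat PLIN2 rose from 125 ± 5.61 to 194 ± 2.49 CPM, VNN1 from 2.1 ± 0.135 to 5.02 ± 0.215 CPM and the mitochondrial gatekeeper CPT1A from 39.5 ± 2.61 to 53.5 ± 3.61 CPM, while the fatty acid binding protein FABP1 fell from 70.7 ± 1.05 to 39.3 ± 2.42 CPM.

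Autophagy and lysosome genes rose in 12 of 21 tested members and fell in 3 (median 0.178), where 15.8% of all tested genes rose and 15.9% fell. The protease CTSB went from 427 ± 15.6 to 752 ± 12.3 CPM and the autophagosome proteins GABARAPL1 and MAP1LC3B from 9.25 ± 0.758 to 15.7 ± 0.495 CPM and from 107 ± 1.42 to 163 ± 5.14 CPM. TFEB, the factor that governs many of these genes, fell by 0.44 ± 0.07. Iron genes had 4 higher and 3 lower of 14, 50% called against 31.7% of all tested genes. The ferritin chains FTL and FTH1 rose by 0.27 and 0.26, the exporter SLC40A1 from 61.8 ± 2.83 to 83.8 ± 1.75 CPM, and HAMP, hepcidin, was not called (-0.09 ± 0.07). Wnt feedback targets had 3 higher and 5 lower of 13, 61.5% called against the same 31.7%. The secreted inhibitors DKK4 and DKK1 fell from 1.36 ± 0.248 to 0.568 ± 0.202 CPM and from 83.5 ± 2.61 to 59.9 ± 1.22 CPM. Of 11 acute phase and NF-kappaB targets 2 rose and 2 fell, 36.4% called against 31.7% of all tested genes. NFKBIA, the inhibitor of NF-kappaB, went from 103 ± 0.492 to 75.5 ± 2.68 CPM. The number higher became 1 without the first library of either dose or the second low-dose library, while the number lower stayed at 2.

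Osmolyte and aquaporin genes other than AQP3 moved in both directions, 3 higher and 2 lower of 9 in all. That was 55.6% called against 31.7% of all tested genes. The number higher was 5 under 6 of the alternative fits, DESeq2 among them. The betaine carrier SLC6A12 fell from 5.38 ± 0.41 to 2.51 ± 0.159 CPM, the taurine carrier SLC6A6 rose by 0.46 and the amino acid carrier SLC38A2, also known as an ATF4 target, rose from 922 ± 20.5 to 1376 ± 25.5 CPM. Further genes with large decreases were FAM151A (-1.91), the inflammatory caspase CASP1 (-1.66), OLFML1 (-1.53), the secreted Wnt antagonist SFRP5 (-1.41) and FNDC5 (-1.37), each with no overlap of libraries. Among markers of other cells, CD68 rose from 35.8 ± 3.29 to 48.7 ± 0.489 CPM, PDGFRB from 9.74 ± 0.255 to 15.1 ± 0.25 CPM and ACTA2 fell by 0.23 ± 0.06 on the log2 scale, the 3 called of 9 tested among the 18 markers of endothelium, fibroblasts, blood and neurons (median -0.233). That was 33.3% of those tested, near the 31.7% of all tested genes. The 3 tested of 4 bile duct markers did not move together (median -0.0731): the keratin KRT19 rose from 168 ± 13.1 to 228 ± 5.57 CPM, the factor SOX9 fell by 0.12 ± 0.03, a call lost in 2 of 14 alternatives, and EPCAM was not called (-0.07). CD68, PDGFRB, KRT19 and ACTA2 were expressed by the cultures in vehicle too, with 29.2, 9.41, 149 and 51.1 CPM.

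Cytosolic ribosomal proteins were the list whose count depended most on the fit. Of 83 members 16 rose and 1 fell, where 15.8% of all tested genes rose and 15.9% fell. RPL22L1, a paralog of RPL22, rose from 43 ± 2.15 to 68.6 ± 1 CPM. The number higher ran from 5 without the second low-dose library to 56 with a replicate block in the 2 groups alone, while the median stayed between 0.0837 and 0.158. Ribosome biogenesis genes had 5 higher and 4 lower of 22, 40.9% called against 31.7% of all tested genes. All were within 0.3 of no change, and 2 were lower without the second library of either dose.

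**Figure D4:**
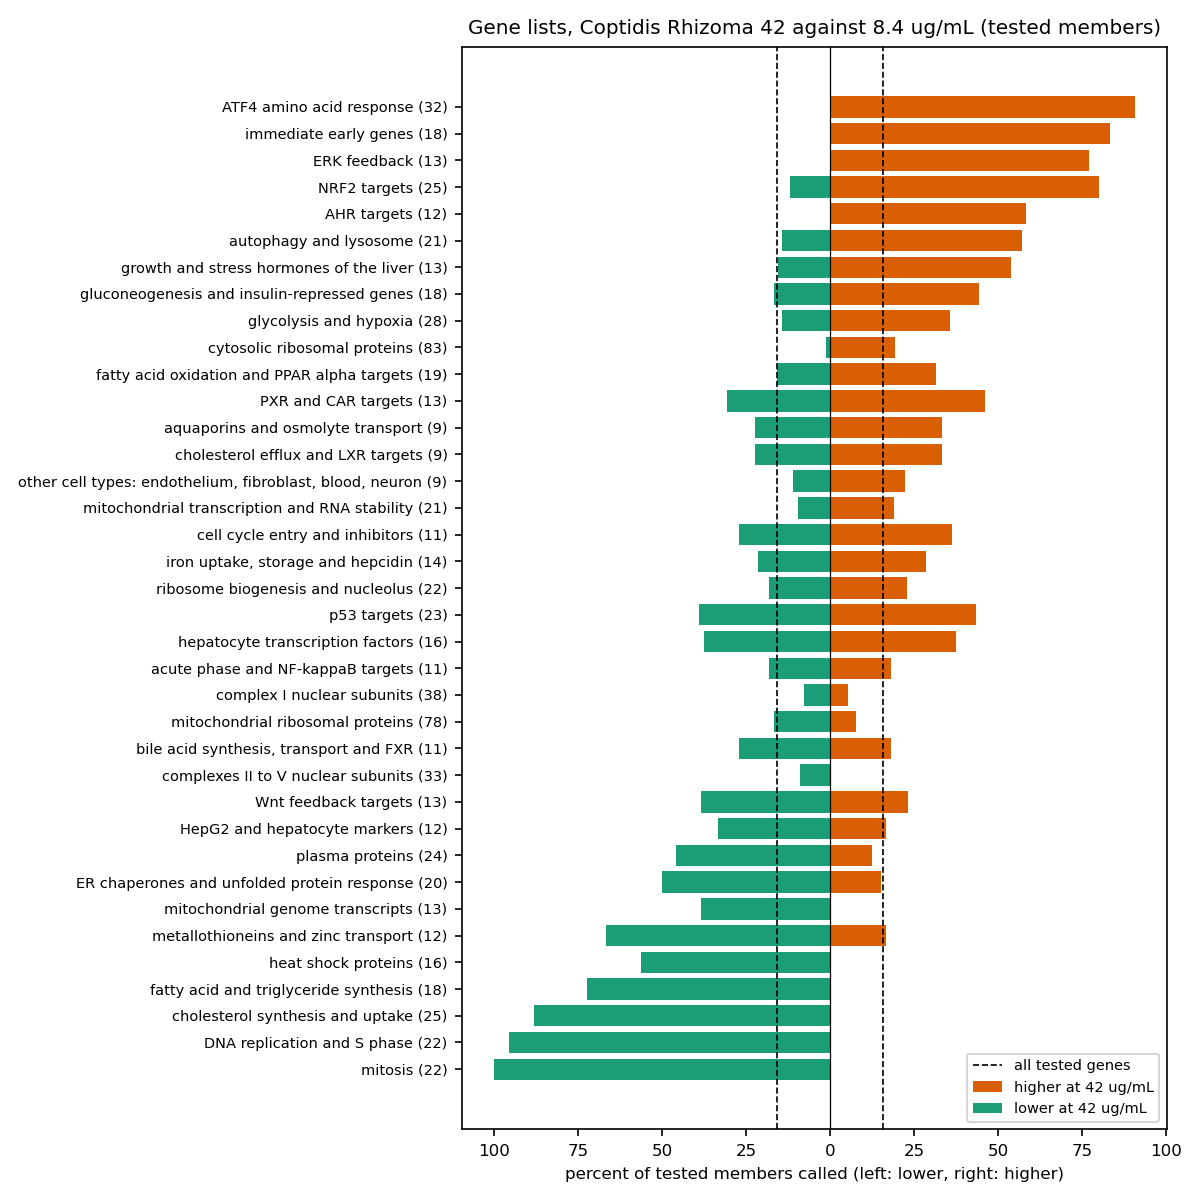
Percent of the tested members of each gene list called higher (right) and lower (left) at 42 against 8.4 µg/mL, with dashed lines at the 15.8% and 15.9% of all tested genes. Mitosis, replication and cholesterol synthesis reach furthest to the left, and ATF4, immediate early and NRF2 genes furthest to the right.

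The same 5-fold step was made with other extracts at higher concentrations. From 20 to 100 µg/mL the fit called 4116 genes for Zingiberis Rhizoma Recens (24.7%), 2690 for Zingiberis Rhizoma (16.2%), 353 for Scutellariae Radix (2.12%), 6 for Zizyphi Fructus (0.0361%) and 1 for Pinelliae Tuber (0.00601%). The difference between steps was tested against Scutellariae Radix, a root rich in flavones, and Zizyphi Fructus, the jujube fruit, whose libraries are not shared with Coptidis Rhizoma. It was not tested against Zingiberis Rhizoma Recens or Zingiberis Rhizoma, whose steps called more genes than these. The differences below therefore do not show what is particular to Coptidis Rhizoma. The Coptidis step differed from that of Scutellariae Radix in 3487 genes (21%), with 1776 more positive (10.7%) and 1711 more negative (10.3%). It differed from that of Zizyphi Fructus in 3908 genes (23.5%), with 1888 more positive (11.3%) and 2020 more negative (12.1%). The 3 Zizyphi libraries at 20 µg/mL stood far apart, with a mean chi-square per gene of 30.1, 14.4 and 8.89 between them, and without the first of them and 1 library of each of 2 other groups the count was 3832. The doses of the 3 extracts are not matched in concentration, so these are differences between steps of equal ratio and not between extracts at equal dose.

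CYP1A1 rose over the step of Scutellariae Radix as well. Its step was 1.36 ± 0.07 for Scutellariae Radix and -0.01 ± 0.12 for Zizyphi Fructus, against 2.02 ± 0.07 for Coptidis Rhizoma, and the difference from Scutellariae Radix was 0.66 (edgeR adjusted p = 7.16e-07). IGFBP1 rose by 0.54 ± 0.09 with Scutellariae Radix and was at -0.08 ± 0.09 with Zizyphi Fructus, giving differences of 2.49 and 3.12. AQP3 differed by 2.00 and 2.60. For MT1F the steps of the other extracts were 0.23 ± 0.07 and -0.14 ± 0.07, neither of them called. ASNS was at 0.07 ± 0.05 with Scutellariae Radix and fell by 0.54 with Zizyphi Fructus, with differences of 1.28 and 1.89.

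By lists, the step was more negative than that of Scutellariae Radix in all 22 mitosis genes (median difference -0.565), 22 of 25 cholesterol genes (-0.87) and 21 of 22 replication genes. It was more positive in 24 of 32 ATF4 targets, with 1 more negative, and in 12 of 18 immediate early genes. Of all tested genes 10.7% were more positive and 10.3% more negative. Among targets of xenobiotic sensors, 4 of 12 AHR targets were more positive than with Scutellariae Radix and 1 more negative. For NRF2, 11 of 25 targets were more positive and 2 more negative. In both lists the more negative count did not exceed the 10.3% of all tested genes. Over its own step Scutellariae Radix raised 0.805% of all tested genes, among them 5 AHR and 10 NRF2 targets, and none of the mitosis or cholesterol genes was called in it. Zizyphi Fructus moved 6 genes in all, so the difference from it mostly restates the Coptidis step and is no separate test of it. The same Coptidis libraries also enter both differences. Against Zizyphi Fructus all 22 mitosis and 22 of 25 cholesterol genes were more negative. More positive were 28 of 32 ATF4, 20 of 25 NRF2 and 4 of 12 AHR targets, and 1 NRF2 target was more negative. Of all tested genes 11.3% were more positive and 12.1% more negative.

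**Figure D5:**
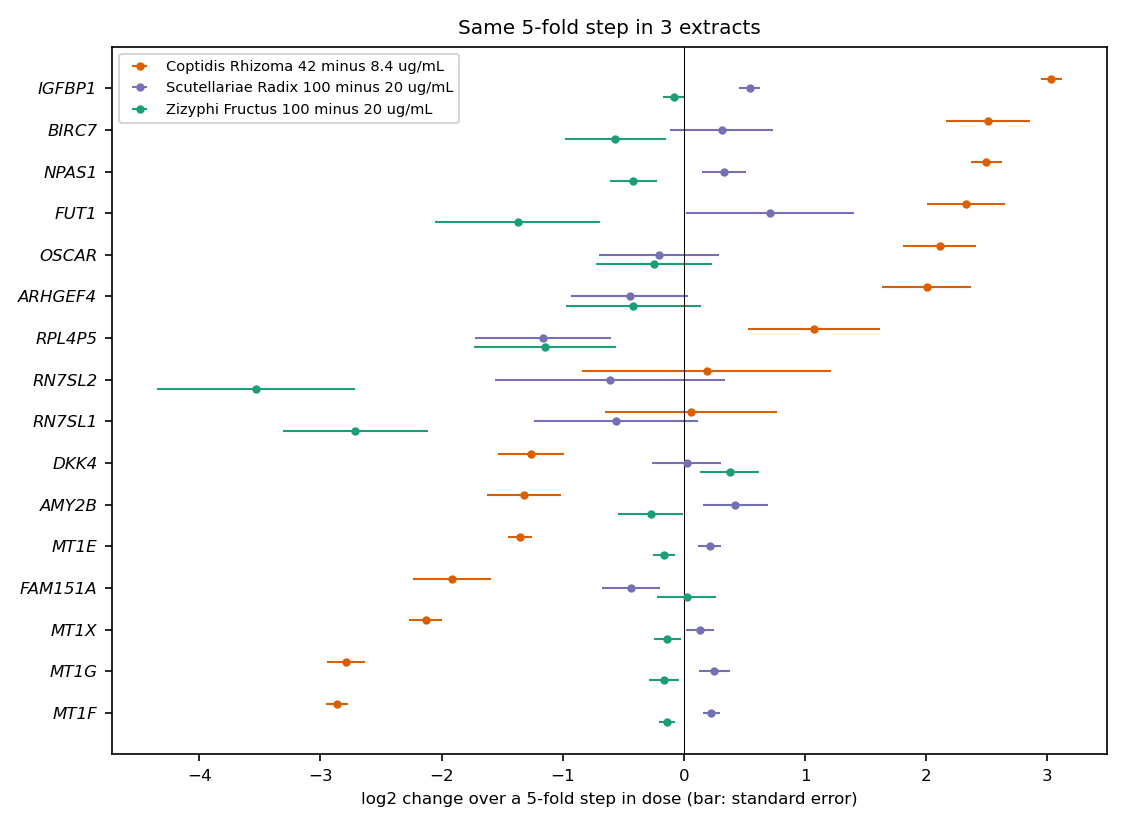
Log2 change (points) ± SE (bars) of 16 genes over the 5-fold step of Coptidis Rhizoma (42 minus 8.4 µg/mL), Scutellariae Radix (100 minus 20 µg/mL) and Zizyphi Fructus (100 minus 20 µg/mL). The Coptidis points lie farthest from 0 for IGFBP1, NPAS1, MT1F and MT1G, whereas for RN7SL1 and RN7SL2 it is the Zizyphi points that do.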

How the data were processed

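Messenger RNA libraries from HepG2 cells were made with a directional kit and sequenced as paired reads of 100 bases, per the labels' protocols. The deposited table holds the expected counts per gene that the authors estimated with RSEM 1.3.3 after FastQC 0.11.9, Trim Galore 0.6.5 and STAR 2.7.3a on GRCh38, per the submitters' processing notes. No source used here names the annotation or the strand setting. Of 267 columns 59 matched a sample of the series, and 208 were not used. Expected counts were rounded before testing. RSEM splits reads shared by close copies (MT1 genes, GSTA1 and GSTA2, HSPA1A and HSPA1B) by estimation.

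edgeR 4.0.16 in R 4.3.3 fitted 20 group means over 59 libraries (TMM, filterByExpr, quasi-likelihood test, two-sided, Benjamini-Hochberg over 16641 tested of 60675 genes, called under 0.05). The fit had a biological coefficient of variation of 4.4% and 39 residual degrees of freedom, and was tested on simulated data. All groups shared 1 estimate of the spread. DESeq2 1.42.0, RLE size factors, no filter, fits of only the groups compared, a replicate block and each library left out were the alternatives. Replicate numbers were not used to pair the samples in the main fit. Same-numbered deviations over all tested genes correlated at -0.00689, 0.024 and 0.0449, which cannot exclude a shared replicate effect in some genes. Coordinates are from GENCODE 29, and promoters from RefSeq (GRCh38.p14). The share of mitochondrial counts was compared by an exact permutation test, two-sided. Figures were drawn with matplotlib 3.10.9. The deposited texts state 2 different DMSO contents for the vehicle, which was left unresolved.

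Members and gene lists were chosen with earlier results of these data known, so no list was tested, and lists are described by counts and medians. The 38 lists hold 766 different tested genes, and 33 stand in more than 1. The genes named are, by rule, the 12 largest changes in each direction with at least 1 CPM and no overlap, up to 4 called members per list with the largest change, 28 genes always named, and the 6 largest differences of steps in each direction per extract. Some of the genes so named are not reported here. Other names were chosen after their values were seen.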

Additional observations from a re-analysis of the deposited data

Results flagged for a closer look

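Differences between the Coptidis Rhizoma step (42 minus 8.4 µg/mL) and the step of another extract of the same ratio (100 minus 20 µg/mL) were tested directly, each by an interaction contrast of edgeR, and passed in 3487 genes for Scutellariae Radix and 3908 for Zizyphi Fructus. The values below are log2 differences, positive where the Coptidis step was the more positive. Concentrations were not matched.

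Against Scutellariae Radix large positive differences were 2.49 for IGFBP1, 2.45 for ARHGEF4, 2.32 for OSCAR, 2.24 for RPL4P5, 2.2 for BIRC7 and 2.16 for NPAS1. Large negative ones were -3.09 for MT1F, -3.04 for MT1G, -2.26 for MT1X, -1.74 for AMY2B and -1.57 for MT1E. RPL4P5 is a ribosomal protein pseudogene whose own Coptidis step was not called, with values at 42 µg/mL of 2.5, 0.685 and 0.766 CPM, so that the first library stood above the others. Its difference lay between 1.37 and 2.55 when single libraries were left out and was not called in some of these fits.

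Against Zizyphi Fructus large positive differences were 3.72 for RN7SL2, 3.7 for FUT1, 3.12 for IGFBP1, 3.08 for BIRC7, 2.92 for NPAS1 and 2.77 for RN7SL1. Large negative ones were -2.72 for MT1F, -2.63 for MT1G, -1.99 for MT1X, -1.93 for FAM151A and -1.64 for DKK4. RN7SL1 and RN7SL2, near-identical copies of the RNA of the signal recognition particle, had Coptidis steps of 0.06 and 0.19 and Zizyphi steps of -2.71 and -3.53. Their differences were called in 9 and 8 of 13 alternatives and lost with only the groups compared in the fit (edgeR adjusted p = 0.147 for RN7SL1 and 0.136 for RN7SL2). The 3 Zizyphi libraries at 20 µg/mL stood far apart, with a mean chi-square per gene of 30.1, 14.4 and 8.89 between them. Without the first of them, and 1 library of each of 2 other groups, the differences were 3.19 for RN7SL1 and 4.21 for RN7SL2, both called.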

How the results depend on the processing

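All counts of called genes stayed within 1.5 times of the reported ones in 14 alternatives (13 for the differences of steps), and no shared call changed direction. For the 5278 genes called, leaving out single libraries gave 4601 to 4762, of which 4366 to 4550 were also called with all libraries, and the other settings 4857 (no filter) to 5909 (without 3 libraries of other groups that earlier work on these data named as standing apart). DESeq2 called 4963 and the count without mitochondrial genes, a setting chosen after seeing the data, was 5262. A replicate block over all libraries gave 5332 genes and a replicate block in the 2 groups alone 5785. Whether samples of equal number belong together is not known, and not every sample correlated best with its own number. Differences of steps ranged from 3083 to 4179 genes for Scutellariae Radix and from 2615 to 3996 for Zizyphi Fructus. The fall in the mitochondrial messenger share was -1.28 percentage points with tested genes as the denominator.

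Of 164 named genes called, 143 were called in every alternative that tested them and 21 were lost in at least 1. Not every alternative tested every gene. CYP3A4, not called in the main analysis, went from -0.64 to 0.51 when single libraries were left out. Among list medians, 4 took both signs in such fits: complex I subunits ran from -0.0479 to 0.00592, fatty acid oxidation and PPAR alpha targets from -0.0481 to 0.000691, complexes II to V from -0.0581 to 0.00245 and Wnt feedback targets from -0.0322 to 0.0229, and the cause was not tested. Among counts of list members, 81 of 1062 moved by over 1.5 times, in 15 lists, most of them with few calls. Genes below 0.5 CPM at the low dose, such as CHAC1, CYP1A2 and INSIG1, rest on few counts there, and changes in them are the least precise.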
